A study of Arabidopsis thaliana with 20 samples.

Results

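The data described here are the 4 arrays of Arabidopsis cells that were kept at 4 °C for 12 h and then given cordycepin for 0, 4, 8 or 12 h, out of 20 arrays in the study. They were chosen by their sample titles alone, and the text gives the transcripts that fell or rose against the rest over those hours. All samples are T87, a suspension culture line of ecotype Col-0 that is kept in liquid medium, so no organ or tissue is present. The comparison groups are the same cells after 6, 24 or 36 h at 4 °C, sampled at the same hours of cordycepin, and cells at 22 °C sampled at 0, 0.5, 2 and 4 h. Cells at 22 °C had 80 µmol of light per square metre and second, and cells at 4 °C had 40. Every condition has 1 array, so replicate spread is unknown and precision is set by how few arrays there are. The p-values below measure how far single arrays scatter about a straight line, not how cultures differ.

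Cordycepin is an adenosine analogue that lacks the hydroxyl group on which the next nucleotide is added, so it stops growing RNA chains and blocks polyadenylation. Once new transcription stops, a transcript disappears at the pace of its own decay. Short-lived plant mRNAs often encode transcription factors and signalling proteins, whereas mRNAs of metabolic enzymes and protective proteins tend to last longer. In the cold, plants build up dehydrins and other protective proteins, and mRNA decay as a whole is slow. Affymetrix ATH1 arrays report each transcript against the other transcripts on the same array. A positive slope here therefore means that a transcript gained signal relative to the average one. It says nothing about whether decay or synthesis set it, which was not tested.

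Of 6961 genes tested, 1078 fell (15.5%) and 1083 rose (15.6%) over the 12 h of cordycepin (limma, adjusted p under 0.05). The slope is given in log2 units per hour, and its median over all genes was 0.0065. The falls were larger than the rises. Of all genes, 430 (6.18%) were at least 2-fold lower on the 12 h array than on the 0 h array, and 81 (1.16%) were at least 2-fold higher. Among genes that fell, the median change from 0 to 12 h was -0.87 log2 units, and 80 were at least 4-fold lower. Among genes that rose it was 0.59, and 6 were at least 4-fold higher. The counts moved with the zero point, and the zero points of the reference genes and of anchoring both lower every slope. Centring the arrays on 7 reference genes gave 1702 falls and 265 rises, all of the latter among the 1083, and anchored slopes, from each of which the 95th percentile of all slopes was taken off, gave 5087 and 34. Of the calls, 49.9% were falls with the deposited scale, 86.5% after centring on reference genes, and 99.3% with anchored slopes. Leaving out the 12 h array gave 646 falls and 455 rises, leaving out the 8 h array gave 821 and 512, and leaving out the 0 h array gave 914 and 713. Of the calls, 444 falls and 173 rises passed in each of the 4 fits that leave out 1 array.

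The 15 largest falls all began from a level that was raised in the cold, by 1.18 to 6.42 log2 units over the 22 °C array. That same 0 h array also sets the falls, so a high reading there adds to both, and no test was made. AT5G19120 had log2 intensities of 10.01, 7.96, 7.05 and 5.42 at 0, 4, 8 and 12 h of cordycepin. Its level dropped at each step, and the array at 12 h was 24.2-fold lower than the one at 0 h (slope -0.37 ± 0.021, SE; limma adjusted p = 6.42e-05). AT5G20790, the brightest of the 15, had 12.78, 11.12, 10.28 and 8.81. It was 15.7-fold lower at 12 h, with larger drops in the outer steps than from 4 to 8 h. AT3G07350 had 8.58, 5.23, 4.79 and 4.29, so that most of its 19.6-fold drop lay before 4 h. These genes carry only a locus identifier in the tables used here, and no function is given for them.

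STZ is the one gene of the 15 with a symbol; it encodes a zinc finger repressor of transcription (also called ZAT10) that plants induce under salt, drought and cold. Its levels were 11.70, 10.17, 9.01 and 8.48 at 0, 4, 8 and 12 h, and each later array was lower than the one before. The drop was 9.32-fold, with a slope of -0.27 ± 0.022 (SE; limma adjusted p = 0.000219). The other members were AT5G63130, AT3G43110, AT1G33760, AT1G69760, AT5G17340, AT1G72890, AT2G32030, AT1G78410, AT5G60680, AT3G10930 and AT2G32020. Over the 15, the 0 to 12 h drop ran from 9.09- to 24.2-fold. In 9 of them the 12 h level lay below log2 5.94, the intensity used as the filter; the files hold no detection calls, and folds that reach such levels are not exact. All 15 kept their call in each fit with 1 array left out, though they were picked on these same arrays. In 14 of them the step from 0 to 4 h was the largest of the 3. AT5G17340 alone did not drop at every step, with 8.27 at 4 h and 8.47 at 8 h. AT2G32020 and AT2G32030 are next to each other in the TAIR10.1 gene order, and whether their probe sets read each other's transcripts was not tested.

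**Figure D1:**
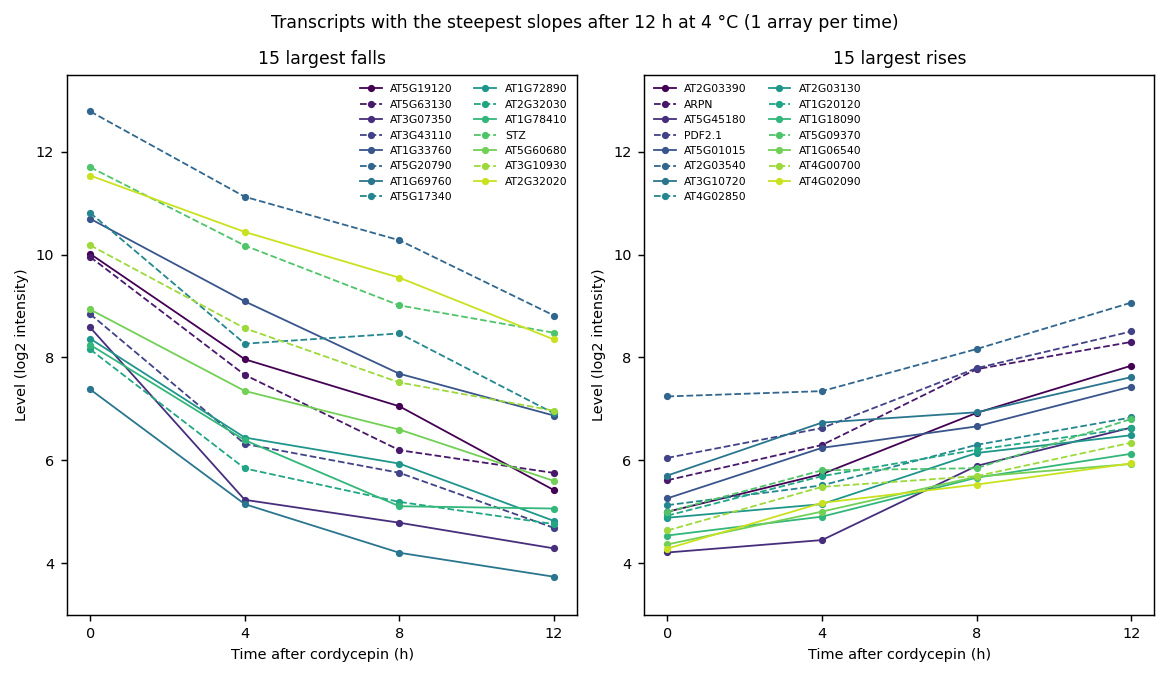
Log2 intensity (vertical axis) at 0, 4, 8 and 12 h of cordycepin (horizontal axis) after 12 h at 4 °C, for the 15 largest falls on the left and the 15 largest rises on the right. Each line is 1 gene and each point is 1 array; AT5G19120 goes from 10.01 to 5.42, and AT2G03390 from 5.0 to 7.84.

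The same genes were lower after 24 h at 4 °C without cordycepin than after 12 h. If the flasks stayed at 4 °C, cells with 12 h of cordycepin had also been cold for 24 h, so the array at 24 h of cold without the drug is the nearest match. STZ stood at 11.70 after 12 h of cold, 10.67 after 24 h, and 8.48 after 12 h of cold plus 12 h of cordycepin. All 15 were lower on the 24 h array, and 12 were at least 2-fold lower, against 2.66% of all genes. For 13 of the 15 the cordycepin array was lower still. AT2G32030 had 8.16 after 12 h, 4.74 after 24 h and 4.76 with cordycepin, and AT1G78410 had 8.24, 5.02 and 5.06, so the cordycepin array lay within 0.04 log2 units of the 24 h array for both. Of the 1078 falling genes, 164 (15.2%) were at least 2-fold lower on the 24 h array. These are single arrays, the same 12 h array serves both comparisons, and no test was made.

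**Figure D2:**
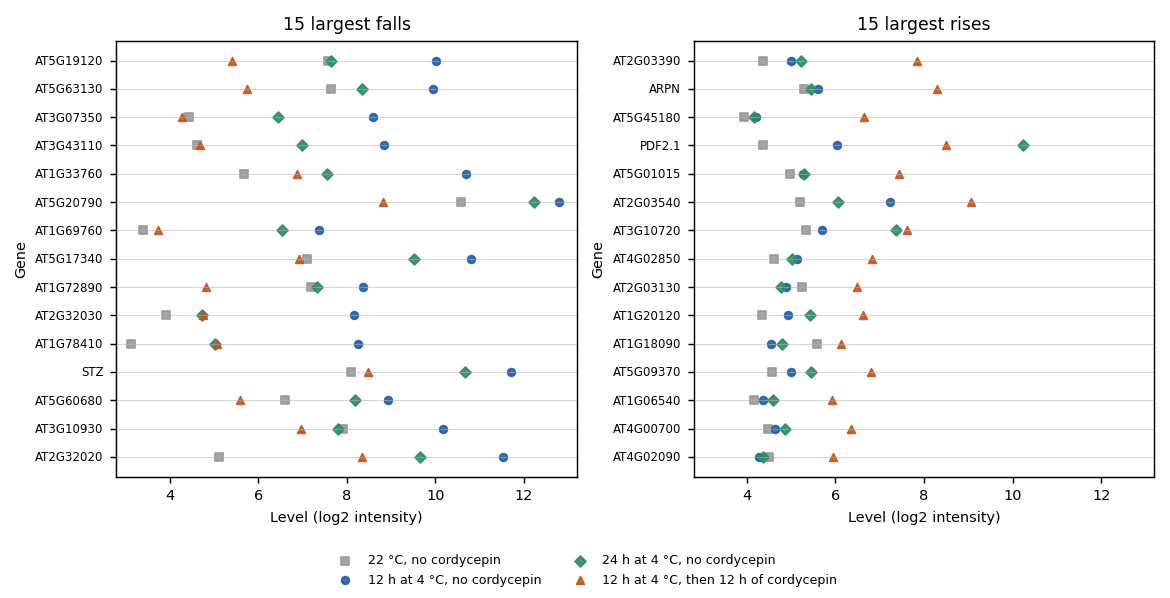
Log2 intensity (horizontal axis) of the 15 largest falls (left) and the 15 largest rises (right) on 4 single arrays: 22 °C, 12 h at 4 °C and 24 h at 4 °C without cordycepin, and 12 h at 4 °C followed by 12 h of cordycepin. STZ sits at 8.09, 11.70, 10.67 and 8.48 in that order.

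The 15 largest rises began from low levels, below the filter intensity of log2 5.94 at 0 h in 13 of them, so their folds are not exact. The filter also counted arrays with cordycepin, so a gene dim at 0 h could enter through later, brighter arrays. Among dim genes this can favour those that rise, and its part in the low starts was not tested. At 12 h 2 of the 15 were still below that intensity, AT1G06540 at 5.9277 and AT4G02090 at 5.9382. AT2G03390 had log2 intensities of 5.0, 5.73, 6.92 and 7.84 at 0, 4, 8 and 12 h, a 7.16-fold increase (slope 0.24 ± 0.014, SE; limma adjusted p = 6.42e-05). ARPN encodes plantacyanin, a small blue copper protein of the cell wall; it had 5.61, 6.30, 7.77 and 8.30, which is 6.45-fold higher at 12 h. PDF2.1, a plant defensin, had 6.05, 6.63, 7.79 and 8.50, or 5.50-fold higher. Each of these rose at all 3 steps, as did all 15. The choice asked for later levels all on 1 side of the 0 h level, so this is partly fixed by it. The others of the 15 were AT5G45180, AT5G01015, AT2G03540, AT3G10720, AT4G02850, AT2G03130, AT1G20120, AT1G18090, AT5G09370, AT1G06540, AT4G00700 and AT4G02090. AT2G03460, with a slope of 0.20, did not meet the rule of choice and is not among them. Over the 15, the change from 0 to 12 h ran from 2.96- to 7.16-fold. All 15 kept their call with 1 array left out, whichever it was, and after centring on reference genes. They were picked on these same arrays, so this was no independent check. The step from 4 to 8 h was the largest for 8 of the 15, whereas among the 15 largest falls the first step led. That contrast did not hold over all called genes. There the step from 0 to 4 h was the largest for 664 of 1083 rises and for 519 of 1078 falls.

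PDF2.1 was the one riser that was far higher after 24 h of cold without cordycepin, at 10.23 against 6.05 after 12 h. Its 8.50 after 12 h of cordycepin lay between those. AT3G10720 had 5.70 after 12 h of cold, 7.36 after 24 h and 7.62 with cordycepin. For ARPN the 24 h array without cordycepin read 5.45, close to its 5.61 after 12 h of cold. Of the 15 risers, 2 were at least 2-fold higher on the 24 h array, against 1.57% of all genes, and 1, AT2G03540, was at least 2-fold lower.

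Several risers lie close together on chromosome 2, a pattern chosen after the values were seen. Of 30 genes with a slope above 0.1, 6 are among the first 500 annotated genes of that chromosome: PDF2.1, ARPN, AT2G03130, AT2G03390, AT2G03460 and AT2G03540. Their places in the gene order run from 166 to 345, and AT2G03540 is annotated as a pseudogene. The stretch as a whole did not rise. It holds 81 of the 6961 genes tested. Of these 81, 12 rose and 21 fell, against 15.6% and 15.5% of all genes, with a median slope of -0.0052.

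Several transcription factors and calcium sensors of known function fell steeply. Of 7 WRKY and zinc finger factors tested, 3 fell and 0 rose, against 15.5% and 15.6% of all genes, with a median slope of -0.030 against 0.0065 over all genes. WRKY53, a regulator of leaf senescence and defence, had 9.02, 7.21, 6.51 and 6.08 at 0, 4, 8 and 12 h. It lost more than any other WRKY gene here, 7.64-fold (limma adjusted p = 0.00164). WRKY6 fell with a slope of -0.083, later than WRKY53: its level was 8.51 at 0 h and 8.50 at 4 h, and 7.61 at 12 h. The median of the list stayed below zero under every centring tried (-0.050 on reference genes), and all 3 calls held with each array left out.

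Of 10 calmodulin-like and IQ-domain proteins, 4 fell and 1 rose, against 15.5% and 15.6% of all genes, with a median slope of -0.0018. CML37, a calmodulin-like calcium sensor, had 7.30, 5.06, 4.50 and 4.25. Most of its 8.24-fold drop was complete by 4 h. Its levels at 4, 8 and 12 h all lay below the filter intensity, so neither the fold nor the course after 0 h is exact. CML42, a related sensor, had 6.65, 6.14, 5.76 and 5.64, with the 8 and 12 h levels below that intensity. CML38 also fell, with a slope of -0.075. These 3 kept their call with each array left out. The median of this list was above zero under no centring tried.

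Of 11 bHLH factors, 5 fell and 0 rose, with a median slope of -0.036, where 15.5% of all genes fell. Without the 0 h array 3 fell, where 914 of all 6961 genes did. MYC4 and MYC3 are partner activators of jasmonate responses. MYC4 had 8.14, 7.22, 6.39 and 5.69, a steady 5.46-fold drop (slope -0.20 ± 0.012, SE; limma adjusted p = 6.42e-05). MYC3 had 7.43, 7.22, 7.01 and 6.41, which is 2.03-fold, and without the 12 h array it was not called (limma adjusted p = 0.0901). The brightest member, ILR3, a regulator of iron and metal balance, had 9.50, 9.45, 9.51 and 9.52 and was not called (limma adjusted p = 0.85). The list therefore held both steep and flat transcripts.

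Of 12 bZIP factors, 4 fell and 2 rose, against 15.5% and 15.6% of all genes, with a median slope of -0.018. BZIP60 is an activator of the unfolded protein response, and its levels were 11.09, 10.50, 9.96 and 9.28. BZIP53, which works in energy shortage and seed maturation, had 10.37, 9.74, 8.98 and 8.28. Both declined almost evenly, by 3.50- and 4.24-fold, and both kept their call with each array left out. EEL, a bZIP factor of seed genes, rose from 5.87 to 6.64, and lost its call without the 12 h array (limma adjusted p = 0.107).

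Of 11 U-box and RING ubiquitin ligases, 5 fell, 6 were not called and 0 rose, with a median slope of -0.022, where 15.5% of all genes fell. Without the 0 h array 3 fell, where 914 of all 6961 genes did. PUB22 and PUB23 are paired U-box ligases that dampen immune and drought responses. PUB23 had 10.37, 9.43, 8.59 and 8.01, and PUB22 had 9.31, 8.40, 7.70 and 7.29. The drops were 5.14- and 4.08-fold, and both genes, with PUB19, kept their call with each array left out. Ubiquitin-conjugating enzymes differed: of 10, 0 fell and 4 rose, against 15.5% and 15.6% of all genes. Their median slope was 0.010, and it turned to -0.0094 with centring on reference genes and to -0.046 with anchored slopes. UBC30, the steepest, had 8.68, 9.09, 9.24 and 9.50. Of 12 ubiquitin-specific proteases, 1 fell and 1 rose; the faller was UBP22, which takes ubiquitin off histone H2B, with 7.77, 7.46, 7.25 and 6.79.

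**Figure D3:**
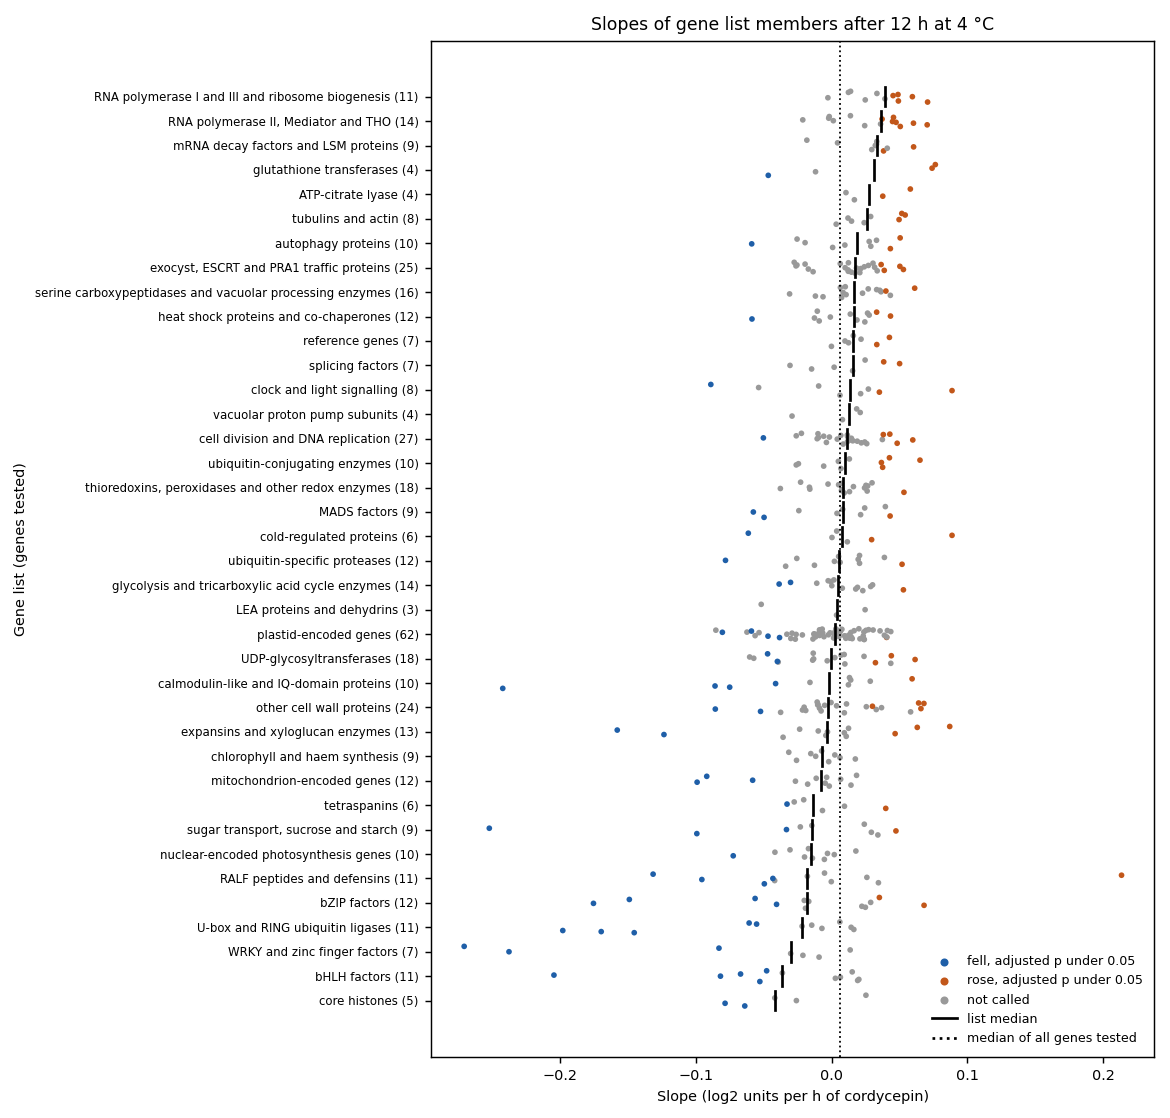
Slope in log2 units per hour of cordycepin (horizontal axis) for the tested members of 38 gene lists (vertical axis, ordered by median), with 1 point per gene, blue for genes that fell, orange for genes that rose and grey for those not called. Black bars are list medians and the dotted line is the median of all genes, 0.0065; medians from -0.0004 up to 0.019 change sign when arrays are centred on reference genes or on the median of all genes, and all positive medians turn negative with anchored slopes.

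Some genes of the transcription machinery itself were among those that rose. Of 14 genes for RNA polymerase II, Mediator and the THO complex, 7 rose and 0 fell, where 15.6% of all genes rose. With centring on reference genes 2 rose and 1 fell, where 265 and 1702 of all 6961 genes did. The median slope was 0.037, which was 0.017 with centring on reference genes and -0.019 with anchored slopes. NRPB7, a stalk subunit of RNA polymerase II, had 7.60, 8.06, 8.30 and 8.46 at 0, 4, 8 and 12 h. It rose at each step, by 1.81-fold (limma adjusted p = 0.00483), and it was the only one of the 7 called in each fit with 1 array left out. NRPB9B had 8.38, 8.56, 8.78 and 9.11, and NRPB6A, the brightest member, had 10.51, 10.73, 10.82 and 11.16. Without the 12 h array NRPB9B and NRPB6A were not called (limma adjusted p = 0.0714 and 0.138).

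Of 11 genes for RNA polymerase I and III and ribosome biogenesis, 5 rose and 0 fell, where 15.6% and 15.5% of all genes did. Without the 0 h array 1 of the 11 rose, where 713 of all 6961 genes did. The median slope was 0.039, which was 0.020 with centring on reference genes and -0.016 with anchored slopes. None of the 5 was called after centring on reference genes, where 265 of all 6961 genes rose. NRPA1, the largest subunit of RNA polymerase I, had 7.41, 8.23, 8.24 and 8.35. Most of its rise lay between 0 and 4 h, and without the 0 h array its slope was 0.015 (limma adjusted p = 0.521). YAO, a nucleolar protein of rRNA processing, had 7.18, 7.79, 7.90 and 7.94, and it too was not called without the 0 h array (limma adjusted p = 0.435), nor without the 8 h array (limma adjusted p = 0.0544). At 22 °C the median slope of the same list was -0.31. The hours sampled there differ, so no comparison is made.

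Of 9 mRNA decay factors and LSM proteins, which decap and degrade mRNA, 2 rose and 0 fell, where 15.6% and 15.5% of all genes did. Their median slope was 0.033, and -0.022 with anchored slopes. LSM3B had 8.83, 9.12, 9.19 and 9.61, and LSM1A, a cytoplasmic decapping activator, had 9.06, 9.31, 9.22 and 9.60. Neither was called without the 12 h array (limma adjusted p = 0.105 and 0.484), and LSM1A was not called without the 0 h or 8 h array either (limma adjusted p = 0.0746 and 0.0509). Of 7 splicing factors, 2 rose and 0 fell (median 0.016, and -0.0039 with centring on reference genes). PRP39 had 8.35, 8.67, 8.77 and 8.98, and it was not called without the 12 h array (limma adjusted p = 0.0661).

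Of 6 cold-regulated proteins, 1 fell and 2 rose, where 15.5% and 15.6% of all genes did. The median slope of these few genes was 0.0077, which became -0.012 with centring on reference genes. COR15A protects chloroplast membranes in the cold, and it had 10.64, 10.42, 10.67 and 10.72 at 0, 4, 8 and 12 h. COR47, a dehydrin, had 13.18, 13.09, 13.21 and 13.19, and LTI30, another dehydrin, had 13.91, 13.96, 13.95 and 13.92. These 3 varied by under 0.3 log2 units over the course and were not called (limma adjusted p = 0.487, 0.765 and 0.985).

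COR27, a cold-induced regulator of the clock and of light signalling, was different. It had 8.94, 9.57, 9.86 and 10.02, a 2.12-fold rise (slope 0.089 ± 0.013, SE; limma adjusted p = 0.00335) that held with each array left out. COR15B had 11.33, 11.50, 11.58 and 11.69, and without the 0 h, 8 h or 12 h array it was not called (limma adjusted p from 0.129 to 0.213). SRC2 fell from 12.49 to 11.72, and without the 12 h array it was not called (limma adjusted p = 0.155). Of 3 late embryogenesis abundant proteins and dehydrins outside that list, 0 were called by limma in either direction. At an unadjusted p under 0.05, AT2G46140 was higher and AT1G54410 lower, where 1682 and 1379 of all 6961 genes were. With the error from 16 arrays 1 of the 3 fell and 1 rose, where 1069 and 1402 of all genes did. The clock gene GI had 8.25, 8.34, 8.42 and 8.31 and was not called, whereas TIC, a nuclear regulator of the clock, fell from 9.96 through 9.65 and 9.39 to 8.86.

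Of 5 core histone genes tested, 2 fell, 3 were not called and 0 rose, where 15.5% of all genes fell. Without the 0 h array 4 fell, where 914 of all 6961 genes did. HTB2 alone was called in each fit with 1 array left out. The list had a median slope of -0.042 that stayed negative under every centring tried. HTB2, a histone H2B gene, had 11.79, 11.56, 11.28 and 10.84 at 0, 4, 8 and 12 h. The drop grew with each step, to 1.94-fold (limma adjusted p = 0.00155). HTB11, another H2B gene, had 9.53, 9.48, 9.10 and 8.81, and without the 12 h array it was not called (limma adjusted p = 0.0634). The median change of the 5 genes was 0.0029 from 0 to 4 h, -0.27 from 4 to 8 h and -0.29 from 8 to 12 h. AT5G16250 showed the same late course, with 11.50, 11.28, 10.88 and 10.15.

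Of 27 cell division and DNA replication genes, 1 fell and 4 rose, against 15.5% and 15.6% of all genes. Their median slope was 0.012, and -0.0077 with centring on reference genes. ASF1B, a histone chaperone of replication, had 7.53, 7.77, 7.84 and 8.30, and PSF2, a subunit of the replicative helicase complex, had 6.52, 6.22, 6.22 and 5.85. Without the 12 h array neither was called (limma adjusted p = 0.175 and 0.281), nor was PSF2 without the 0 h array (limma adjusted p = 0.109). Of 8 tubulin and actin genes, 3 rose and 0 fell (median 0.026, and -0.029 with anchored slopes); TUA1, an alpha-tubulin gene, had 8.14, 8.36, 8.74 and 8.74.

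Of 13 expansins and xyloglucan enzymes, 2 fell and 3 rose, where 15.5% and 15.6% of all genes did. Without the 0 h array 5 fell and 1 rose, where 914 and 713 of all 6961 genes did. The median slope with all 4 arrays was -0.0030. XTH19, a xyloglucan endotransglucosylase, had 8.30, 7.43, 7.24 and 6.26, and EXPA4, an expansin, had 9.98, 9.69, 9.13 and 8.52. Both kept their call with each array left out. XTH33, of the same enzyme family as XTH19, moved the other way with 7.05, 8.07, 8.01 and 8.22, but without the 0 h array its slope was 0.020 and it was not called (limma adjusted p = 0.383). XTH20 had 6.39, 6.71, 6.98 and 7.14 and kept its call throughout. Of 24 other cell wall proteins, 2 fell and 4 rose (median -0.0028). GH9C2, an endoglucanase, fell from 8.09 to 7.0, and GH9B7, of the same family, rose from 8.72 to 9.52.

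Of 11 RALF peptides and defensins, which are small secreted signals and antimicrobial peptides, 4 fell and 1 rose (median slope -0.018). The shares over all genes were 15.5% and 15.6%. RALFL33 had 11.71, 11.35, 10.84 and 10.60, and it was called in each fit with 1 array left out. LCR68, a defensin-like protein, had 10.89, 9.11, 9.54 and 9.0, a drop complete by 4 h, and without the 0 h array its slope was -0.014 (limma adjusted p = 0.602). The riser was PDF2.1, described above.

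Among genes of sugar metabolism, 3 of 9 fell and 1 rose, against 15.5% and 15.6% of all genes (median slope -0.015). ATSPS4F, a sucrose-phosphate synthase, had 8.02, 5.32, 5.92 and 4.46. Its later levels lay below the filter intensity of log2 5.94, so the 11.8-fold drop is not exact (slope -0.25 ± 0.054, SE; limma adjusted p = 0.0122). On the 24 h cold array without cordycepin it read 7.30. SWEET2, a vacuolar sugar transporter, had 6.47, 6.47, 6.12 and 5.26, and without the 12 h array it was not called (limma adjusted p = 0.209). That 12 h level also lay below the filter intensity.

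Of 14 glycolysis and tricarboxylic acid cycle genes, 2 fell and 1 rose, where 15.5% and 15.6% of all genes did (median slope 0.0048, and -0.015 with centring on reference genes). TPI, triose phosphate isomerase, had 13.39, 13.07, 13.19 and 12.84, and GAPC2, cytosolic glyceraldehyde-3-phosphate dehydrogenase, had 13.37, 13.21, 13.24 and 12.96. Without the 12 h array neither was called (limma adjusted p = 0.415 and 0.586), nor TPI without the 0 h array (limma adjusted p = 0.0701), nor GAPC2 without the 8 h array (limma adjusted p = 0.076). Of 4 ATP-citrate lyase genes, 2 rose and 0 fell (median 0.027, and -0.028 with anchored slopes); ACLB-1 had 8.14, 8.43, 8.73 and 8.81.

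Among 18 redox enzymes, 1 rose and 0 fell, and with centring on reference genes 0 rose and 2 fell. Among 16 serine carboxypeptidases and vacuolar processing enzymes, 2 rose and 0 fell, and with that centring 0 were called. Among 25 exocyst, ESCRT and PRA1 traffic proteins, 4 rose and 0 fell, whereas with centring on reference genes 0 rose and 4 fell. With that centring 265 of all 6961 genes rose and 1702 fell, so the zero point moved all genes and not these lists alone. Of 4 vacuolar proton pump subunits 0 were called by limma, also at an unadjusted p under 0.05. Of 9 chlorophyll and haem synthesis genes 0 were called, and 2, CHLM and PORB, were lower at an unadjusted p under 0.05. At that limit 1379 of all 6961 genes were lower and 1682 higher in limma. With the error from 16 arrays 1 of the 9 fell, where 1069 of all genes did. The remaining lists gave 2 falls and 3 rises of 18 UDP-glycosyltransferases, 1 and 2 of 4 glutathione transferases, 1 and 2 of 10 autophagy proteins, 2 and 1 of 9 MADS factors, 1 and 1 of 6 tetraspanins, and 1 and 2 of 12 heat shock proteins and co-chaperones. Each of these shares lies on few genes. Those on the deposited scale are given beside 15.5% and 15.6% over all genes.

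Organelle transcripts are made by other polymerases than nuclear mRNAs. Of 62 plastid-encoded genes, 4 fell and 1 rose, against 15.5% and 15.6% of all genes (median slope 0.0028, and -0.017 with centring on reference genes). Without the 0 h array 2 fell and 12 rose, where 914 and 713 of all 6961 genes did. psbZ, of photosystem II, had 10.74, 10.13, 10.03 and 9.71. Of 12 mitochondrion-encoded genes, 3 fell and 0 rose, and 2 fell without the 0 h array (median -0.0080). ccb452, for cytochrome c biogenesis, had 10.71, 10.04, 9.93 and 9.52, and nad9, of complex I, had 8.71, 7.70, 7.79 and 7.36. psbZ and ccb452 kept their call with each array left out, and nad9 lost it without the 0 h array (limma adjusted p = 0.0628). Of 10 nuclear photosynthesis genes, 1 fell and 0 rose; LHCB4.2, an antenna protein of photosystem II, had 7.75, 6.99, 7.03 and 6.77 and was not called without the 0 h array (limma adjusted p = 0.272).

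The 7 reference genes set the zero of one alternative, and 2 of them rose here. Their median slope was 0.016. AT2G28390 was flattest, with 7.59, 7.58, 7.60 and 7.58. PEX4, a ubiquitin-conjugating enzyme of peroxisomes, had 9.06, 9.12, 9.38 and 9.54 (slope 0.043 ± 0.010, SE; limma adjusted p = 0.0173), and it was not called without the 8 h or 12 h array (limma adjusted p = 0.0616 and 0.135). AT2G32170, the other riser, lost its call whichever array was left out (limma adjusted p from 0.0504 to 0.223). Centring on these genes therefore lowers every slope.

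Genes whose level had gone up in the cold on other arrays fell more often after cordycepin. Of 104 genes at least 2-fold above 22 °C after 6 h of cold but not after 24 h, 67 fell (64.4%) and 3 rose, with a median slope of -0.067. Of 141 genes at least 2-fold above 22 °C at both times, 75 fell (53.2%) and 6 rose. Of 501 genes raised after 24 h only, 142 fell (28.3%) and 91 rose (18.2%). Genes within 2-fold of 22 °C at both times numbered 5793, and 11.5% of them fell. Of 23 genes at least 2-fold below 22 °C at both times, 14 fell. So both directions of cold response held more falling genes than the flat genes did. None of the arrays of the 12 h series was used to form these groups.

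Slopes also followed those of the later cold series. In the quintile of genes with the most negative slope after 24 h of cold, 702 of 1393 (50.4%) fell here and 16 rose, and in the quintile with the most positive slope 46 fell and 420 (30.2%) rose. The same split by the 6 h series gave 523 of 1393 (37.5%) falling in the most negative quintile and 175 in the most positive. By the slope at 22 °C it gave 375 (26.9%) and 129. Across 6961 genes, Spearman's rho between slopes here and those after 24 h, 36 h and 6 h of cold was 0.554, 0.642 and 0.211, and 0.22 with 22 °C. Genes are not independent, all arrays were normalised together, and these values are a description.

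**Figure D4:**
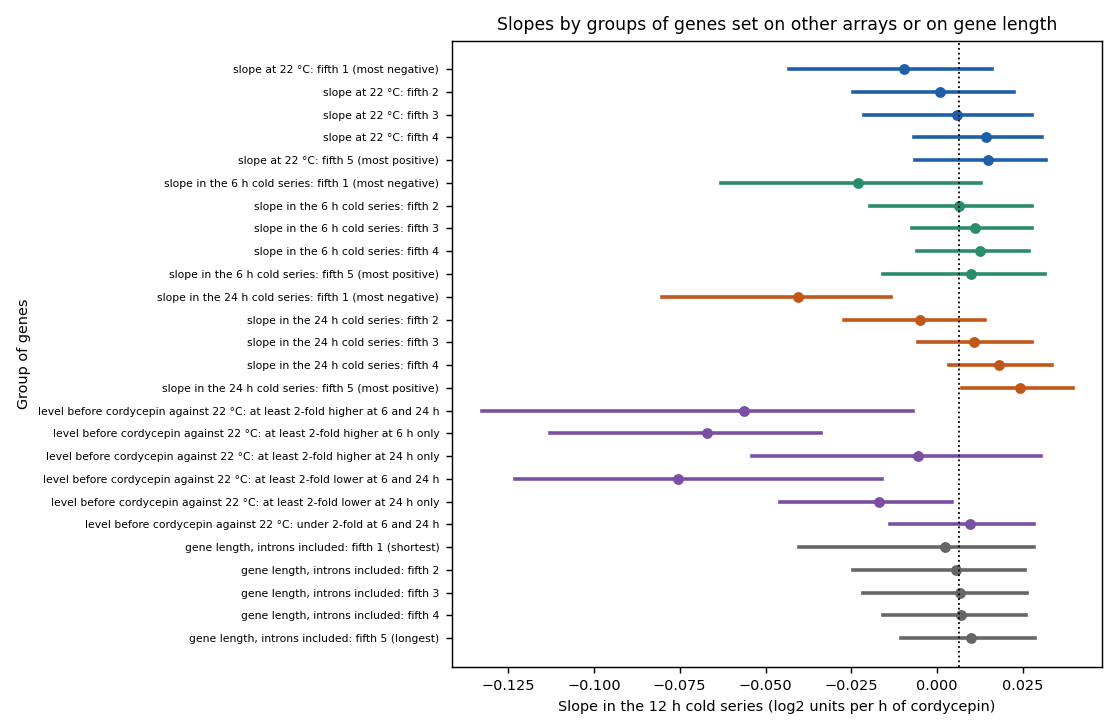
Slope in the 12 h cold series, in log2 units per hour of cordycepin (horizontal axis), for groups of genes set on other arrays or on gene length (vertical axis). Points are medians, bars run from the lower to the upper quartile over genes, and the dotted line is the median of all genes; genes raised at 6 h only have a median of -0.067.

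Level and gene length went with the slope as well. In the dimmest quintile of genes, by the mean of the other 16 arrays, 24.0% fell and 7.68% rose, and in the brightest 7.18% fell and 25.1% rose. In the quintile with the shortest genes (median length 1246 bases, introns included) 23.1% fell, and in the quintile with the longest (4530 bases) 9.45% fell, while 16.7% and 15.7% rose. The part of level and length in the results above was not tested. Markers of other plant cell types were near the floor: EXPA7 of root hairs read 3.84 to 4.11, and FMA and SPCH of stomata read 3.65 to 3.77 and 3.13 to 3.31, where a probe set needed 61.4 in linear intensity on at least 2 arrays to be tested.

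A change that is complete by 4 h is not a line, so the arrays at 4, 8 and 12 h were also set against the 0 h array, whose own scatter is taken to equal theirs. Of 6961 genes, 0 were lower (0%) and 0 higher in limma at an adjusted p under 0.05, while 762 were lower and 910 higher at an unadjusted p under 0.05. Change between 4 and 12 h counts as error in this test. AT3G07350, with its early drop, was among the genes with the smallest adjusted p, at -3.81 log2 units (limma adjusted p = 0.0533). Without the variance trend 1 gene was lower, and with the error from all 16 cold arrays 167 were lower and 244 higher. Without the 4 h array 721 were lower and 510 higher, without the 8 h array 87 and 6, and without the 12 h array 547 and 452.

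Set against the mean slope of the 6, 24 and 36 h cold series, 273 genes (3.92%) had a lower slope after 12 h of cold and 396 (5.69%) a higher one (limma contrast over 16 arrays, adjusted p under 0.05); with centring on reference genes the counts were 463 and 198. Of the 1078 falling genes 202 had a slope below the other series, and of the 1083 rising genes 330 had one above. The slope of the 12 h series enters both calls, so this overlap is partly built in and is no independent check. ATSPS4F differed most, by -0.33: its slope was -0.25 here and 0.29, 0.0043 and -0.043 after 6, 24 and 36 h of cold (limma adjusted p = 0.0151). AT3G43110, AT5G19120, AT5G17340 and AT1G78410 followed, with differences from -0.32 to -0.28. STZ did not pass this test, with slopes of -0.27 here and -0.18, -0.19 and -0.19 in the other series (limma adjusted p = 0.126). Without the 0 h array 0 genes differed either way (limma, with 235 lower and 328 higher at an unadjusted p under 0.05), and without the 12 h array 37 were lower and 63 higher.

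The largest differences upwards were those of WRKY22, AT4G04940, AT1G50590, AT3G10720 and AT4G38410, from 0.11 to 0.13. WRKY22, a defence regulator, had 5.78, 6.37, 5.70 and 5.72 here, higher at 4 h than at the other hours. It was not called as rising or falling, but without the 0 h array it fell (slope -0.081, limma adjusted p = 0.00854). Its slope was -0.24, -0.10 and -0.11 after 6, 24 and 36 h of cold. Of the 11 genes for RNA polymerase I and III and ribosome biogenesis, 6 had a higher slope than in the other cold series and 0 a lower one, against 5.69% of all genes. NRPA1 differed by 0.082 (limma adjusted p = 0.0246), and YAO by 0.080 (limma adjusted p = 0.0140). Of 62 plastid-encoded genes, 10 had a lower slope here and 0 a higher one, against 3.92%. Without the 0 h array none of these was called. The difference was then -0.26 for AT5G19120, -0.19 for ATSPS4F and 0.070 for WRKY22 (limma adjusted p = 0.248, 0.617 and 0.731).

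**Figure D5:**
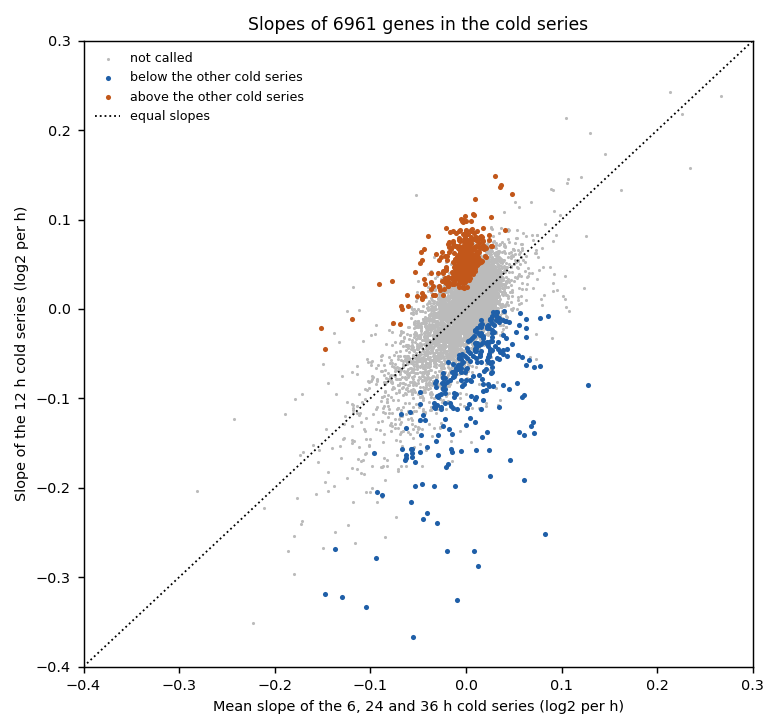
Slope of each of 6961 genes after 12 h of cold (vertical axis) against the mean of its slopes after 6, 24 and 36 h of cold (horizontal axis), both in log2 units per hour. Blue points are the 273 genes called below the other series, orange points the 396 called above, and the dotted line marks equal slopes; without the 0 h array of the 12 h series 0 genes are called.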

How the data were processed

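RNA of T87 cells was read on ATH1 arrays. The deposited intensity values are probe set summaries that the authors made with RMA in affy, per the submitters' processing notes; versions, the genome build and scan batches are not given in the sources used here. The values are linear and were normalised between arrays, so log2 was taken and slopes are relative. Medians of the 4 arrays ran from 60.6 to 68.6.

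Of 22810 probe sets, 13513 had 1 gene, 503 several and 8794 none in the platform table, and 13436 matched TAIR10.1 by Entrez identifier. Each gene took its brightest probe set, and 6961 of 13355 genes had 61.4, the table median, on at least 2 of 20 arrays; 979 carry a symbol. limma 3.58.1 (lmFit, eBayes with trend; R 4.3.3) fitted 1 line per series, with Benjamini-Hochberg adjustment over all genes, two-sided, 2 residual and 6.17 prior degrees of freedom. The fits were tested on simulated data. Named genes are the 15 largest falls and rises past 0.05 whose 3 later values lie on 1 side of 0 h, the 5 largest differences each way, up to 2 list members each way plus the brightest, and COR15A, COR47, HTB2, AT5G16250, STZ, GI and the reference genes; CML38, WRKY6, PUB19 and AT2G03460 fall outside this rule, as do AT2G46140, AT1G54410, CHLM and PORB; all 8 were picked with their values in view. Members and the 38 lists were chosen with earlier results of these data known, and 22 lists were added to the 16 first written. Alternatives were other error arrays, filters, zero points, probe set means, a 2-fold minimum and each array left out. Python 3.11.15, numpy 2.4.6, pandas 2.3.3 and matplotlib 3.10.9 prepared tables and plots.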

Additional observations from a re-analysis of the deposited data

Results flagged for a closer look

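The slope after 12 h of cold differed from the mean slope of the other cold series for 273 genes in the downward and 396 in the upward direction (limma contrast, adjusted p under 0.05), and without the 0 h array of the 12 h series for 0 genes. Among the genes named here, the difference in log2 units per hour was below zero for ATSPS4F (-0.33), AT3G43110 (-0.32), AT5G19120 (-0.31), AT5G17340 (-0.30), AT1G78410 (-0.28), AT2G32030 (-0.25), AT3G07350 (-0.23), LCR68 (-0.20), AT1G33760 (-0.19), AT1G72890 (-0.18), XTH19 (-0.18), AT5G20790 (-0.17), AT5G60680 (-0.13) and MYC4 (-0.11). It was smaller for rpl33 (-0.083), ATG8E (-0.071), GH9C2 (-0.063), TPI (-0.05), ATG8F (-0.041), GAPC2 (-0.038), GSTL3 (-0.037) and LHCB4.1 (-0.036).

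It was above zero for WRKY22 (0.13), AT3G10720 (0.12), AT4G04940 (0.12), AT1G50590 (0.12), AT4G38410 (0.11), AT1G18090 (0.10), AT5G09370 (0.10) and XTH33 (0.10). Smaller differences were found for UGT84A1 (0.093), NRPA1 (0.082), YAO (0.08), AGL18 (0.064), NRPB7 (0.06), ASF1B (0.054), AUR3 (0.052), AT5G14520 (0.049), LSM3B (0.049), PEX4 (0.043), NRPB6A (0.04) and ACLB-1 (0.037). The direction of the split moved with the zero point: centring on reference genes gave 463 lower and 198 higher. Without the 0 h array the 10 largest differences kept their sign and were smaller, from -0.26 to -0.18 for the 5 below zero and from 0.024 to 0.10 for the 5 above, with 0 of them called.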

How the results depend on the processing

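For the slope, falling and rising genes numbered 504 and 787 with the error from all 20 arrays, 1702 and 265 with arrays centred on reference genes, 5087 and 34 with anchored slopes, and 409 and 65 with a 2-fold minimum; anchoring and the 2-fold minimum change the counts by construction. With 1 array left out, falls ran from 646 to 1231 and rises from 455 to 1296. Later levels against 0 h gave 1 gene lower without the variance trend, 167 lower and 244 higher with the error from 16 arrays, and from 87 to 721 lower and from 6 to 510 higher with 1 array left out. The difference from the other cold series gave 74 and 105 genes with the error from all 20 arrays, 463 and 198 with centring on reference genes, and from 0 to 341 lower and 0 to 509 higher with 1 array left out. Other filters, no variance trend, centring on the median, the mean of probe sets and, for the slope, the error from 16 arrays kept these counts within 1.5 times; the cause of the other moves was not tested. No paired analysis was possible because each condition has 1 array. Precision is limited by the number of arrays and by signal near the floor. Anchored slopes turned negative by construction wherever the slope was under 0.0555. Among named genes these were LTI30 (-0.0552), ILR3 (-0.0527), AT2G44060 (-0.0519), COR47 (-0.0517), AGL26 (-0.0515), UBC28 (-0.0505), GI (-0.0493), UGT87A2 (-0.0457), AT4G33380 (-0.0456), TBL36 (-0.0445), COR15A (-0.0439), VPS2.2 (-0.0433), AT4G26410 (-0.0430), IQD31 (-0.0414), TUA6 (-0.0408), AT5G46630 (-0.0395), ACLA-1 (-0.0388), AT4G02620 (-0.0370), UBP23 (-0.0359), AT4G34270 (-0.0338), MAC3B (-0.0308), GRXC2 (-0.0302), Hop2 (-0.0278), COR15B (-0.0260), AT2G32170 and Cpn60beta3 (-0.0223), HYH (-0.0203), ACLA-2 (-0.0178), LSM1A (-0.0172), MAC3A (-0.0171), TET3 (-0.0157), scpl42 (-0.0155), ndhD (-0.0150), PEX4 (-0.0129), AGL18 (-0.0125), APG8A (-0.0123), Hop1 (-0.0121), UGT71C5 (-0.0115), AT5G14520 (-0.0103), TMT2 (-0.0081), AUR3 (-0.0072), PRP39 (-0.0054), SNF7.2 (-0.0052), AT5G66930 (-0.0050), NRPB6A (-0.0049), TUB1 (-0.0038), UBP18 (-0.0037), VPS20.1 (-0.0027), SDH1-2 (-0.0026), TO2 (-0.0023) and TUA1 (-0.0014).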
